A study of Mus musculus with 8 samples.

Results

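Translation initiation factors are the proteins that bring the ribosome, the initiator tRNA and an mRNA together at a start codon. Their genes were taken by symbol, as every gene named Eif1 to Eif5 in the deposited tables, leaving out the eIF2 kinases, the eIF4E-binding proteins, pseudogenes and 1 eIF2 subunit gene. Of the 23845 genes in each table, 45 symbols met that rule, and the 43 with at least 40 expected counts summed over the ribosome footprint libraries were kept. The lowest gene kept was Eif5a2, with 181 summed counts, and the highest gene below the minimum was Eif4e3, with 27.97. Eif4e1b had 3 summed counts and was not kept either.

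In eukaryotic initiation, eIF2 delivers the initiator tRNA to the small ribosomal subunit, where eIF1, eIF1A, eIF3 and eIF5 assemble with it. The eIF4F complex, made of the cap-binding protein eIF4E, the scaffold eIF4G and the RNA helicase eIF4A, brings in the mRNA. After start codon recognition, eIF2 leaves in its GDP form and is recharged by eIF2B, and eIF5B joins the large subunit. Rapidly dividing cells generally need these factors in large amounts.

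The libraries came from mouse embryonic stem cells at passage 5 to 10, either wild type (WT) or with a knockout (KO) of Mettl5, which encodes the methyltransferase that places a methyl group on an adenosine of 18S ribosomal RNA. Each genotype had 2 RNA-seq and 2 Ribo-seq libraries, and Ribo-seq sequences the mRNA fragments that ribosomes protect from nuclease, here purified from the monosome fraction of sucrose gradients. The labels call the libraries biological replicates but do not say whether they came from separate clones or cultures. A p-value of an unpaired fit rests on how far 2 libraries of a genotype differ, in part pooled over genes. That spread may be technical. The labels name no strain or sex, and they do not say how the knockout was made or how many clones it covers.

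The footprint libraries held 8401463 to 11487964 expected counts and the RNA-seq libraries 152195 to 219567, so a floor of 3 counts corresponded to 0.261 to 0.357 CPM (counts scaled to a common library size) in footprints and 13.7 to 19.7 CPM in RNA-seq. Mettl5 itself had 41.1 and 45.7 footprint CPM in the WT libraries and 3.97 and 4.97 CPM in the KO libraries. In RNA-seq it had 84 and 132 counts in WT (481 and 674 CPM) and 39 and 55 counts in KO libraries (274 and 354 CPM), lower without overlap but not called by edgeR (log2 fold change -0.88, standard error 0.32, adjusted p 0.126). Ribosomal RNA from the Rn45s locus took 7.58% to 15.2% of each footprint library. All 8 stem cell marker genes were detected in every footprint library, with a summed level of 5142 to 7043 CPM. The 9 fibroblast markers summed to 64.1 and 122 CPM in WT and to 294 and 419 CPM in KO libraries, with 4 of the 9 at 3 counts or more in every library and Lum and Fap at 0 throughout. Col1a1 (206 and 285 CPM in KO) and Col1a2 (60.3 and 90.8 CPM in KO) made up most of the KO sums, while Thy1 went the other way, at 20.1 and 24.99 CPM in WT and 14.4 and 17.1 CPM in KO libraries. The 7 yolk sac endoderm markers summed to 116 and 175 CPM in WT and to 36.5 and 37.6 CPM in KO libraries, and none of the 7 was at 0 in any library. Cubn (65.4 and 115 CPM in WT, 18.3 and 13.4 CPM in KO) and Dab2 (30.9 and 39.2 CPM in WT, 9.19 and 11.7 CPM in KO) made up most of these sums. Gata4 and Foxa2 overlapped between genotypes. The part of these marker differences in the results that follow was not tested, and in bulk libraries fewer cells of a type and less RNA per cell cannot be told apart.

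Footprints on initiation factor genes summed to less in both KO libraries than in either WT library, and no single gene passed the test. The 43 genes together held 19490 and 18200 CPM in the WT libraries and 15630 and 15760 CPM in the KO libraries. As means these were 18850 ± 912 against 15700 ± 92.3 CPM (SD, n = 2 each). The helicase gene Eif4a1 and the gene of eIF5A accounted for much of that gap. Without Eif4a1 and Eif5a the sums were 11850 and 10950 CPM in WT and 10100 and 10250 CPM in KO libraries.

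A log2 fold change is given throughout as KO minus WT, so a negative value means fewer footprints or fewer RNA counts in the knockout. In the footprint comparison 34 of the 43 genes had a negative log2 fold change, against 49.2% of all 12315 genes tested. Their median was -0.16, with a range from -0.63 to 0.72, beside a median of 0.01 over all genes. None of the 43 was called at an adjusted p below 0.05 by edgeR's quasi-likelihood test with Benjamini-Hochberg adjustment, where 2.44% of all genes were called, 0.617% lower and 1.83% higher. At an unadjusted p below 0.05 there were 6 of the 43, against 19.4% of all genes. DESeq2 called 1 of the 43, Eif5b, beside 3.04% of all genes, and limma called 0, beside 1.4%. Both KO libraries lay below both WT libraries for 20 of the 43 genes, where 24.6% of all genes did so. They lay above both WT libraries for 2 genes, Eif4g3 and Eif3i, where 25.8% of all genes did so.

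**Figure D1:**
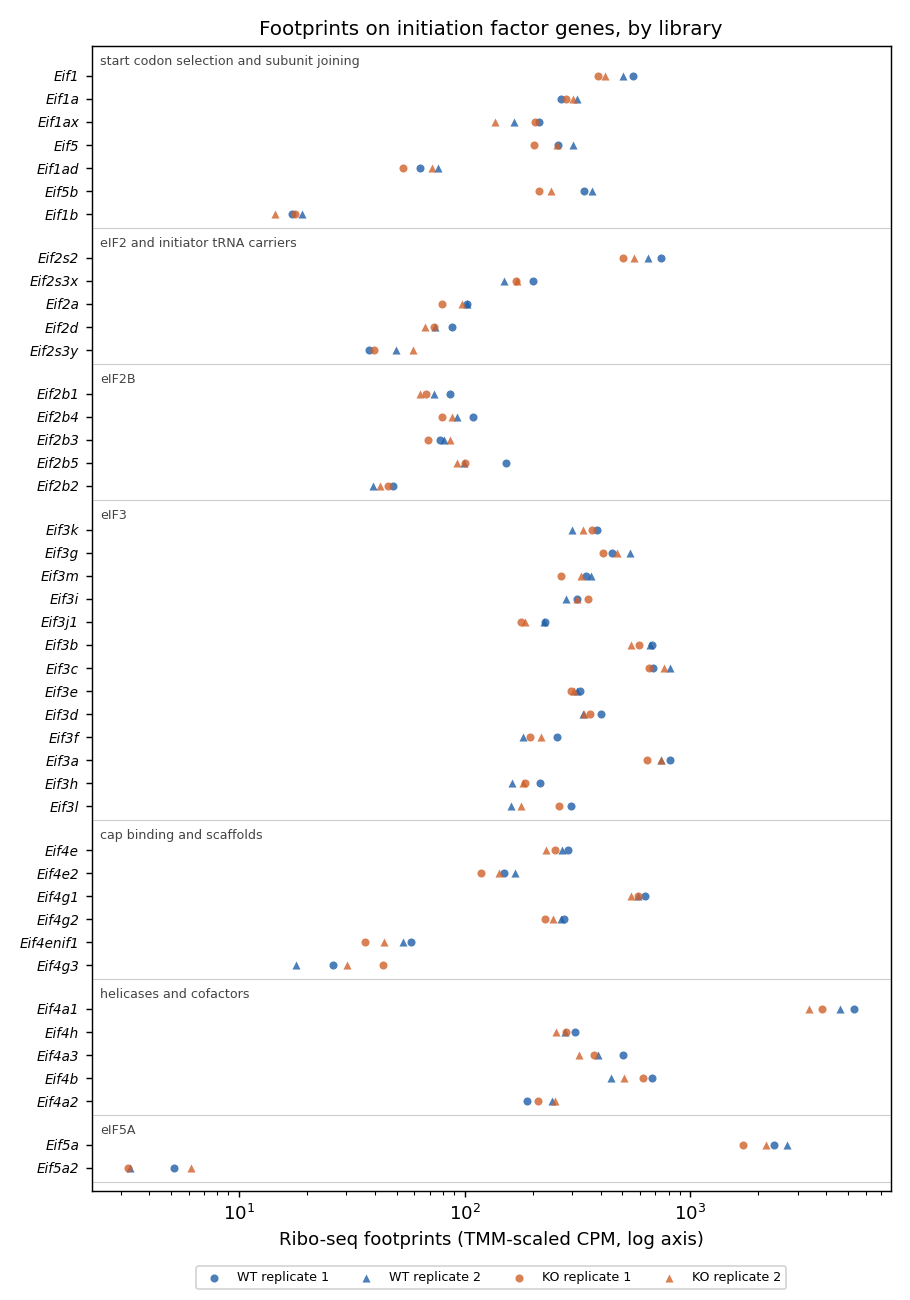
Footprint level of each of the 43 initiation factor genes (horizontal axis, CPM on a log scale) in the 2 WT and 2 KO footprint libraries, 1 point per library, with genes ordered by role. Points of the 2 genotypes separate for 22 genes, and Eif4a1 (3359 to 5306 CPM) is far above the paralog Eif4a2 (190 to 251 CPM).

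The deposited names of same-numbered WT and KO footprint libraries share a tag. The labels do not say what the tag marks, and the paired values are therefore given beside the unpaired ones. Between the libraries numbered 1, 37 of the 43 genes were lower in KO, with a median log2 difference of -0.24. Between the libraries numbered 2, 28 were lower, with a median of -0.11. Lower in both pairs were 26 genes, where 35.6% of all genes were so. With the replicate number as a block in the edgeR fit, 10 genes were called lower and 1, Eif4g3, was called higher. That fit called 24.0% of all genes, 11.3% lower and 12.7% higher. The 10 genes were Eif5b, Eif4enif1, Eif1, Eif2b5, Eif2s2, Eif4a3, Eif3j1, Eif5, Eif4e2 and Eif4a1, and they came from every role group except eIF5A. Footprint p-values with the block rest almost wholly on a spread shared over genes. However small, they do not measure how well the libraries of a single gene repeat. Among the 10, Eif2b5 had paired log2 differences of -0.60 and -0.11.

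**Figure D2:**
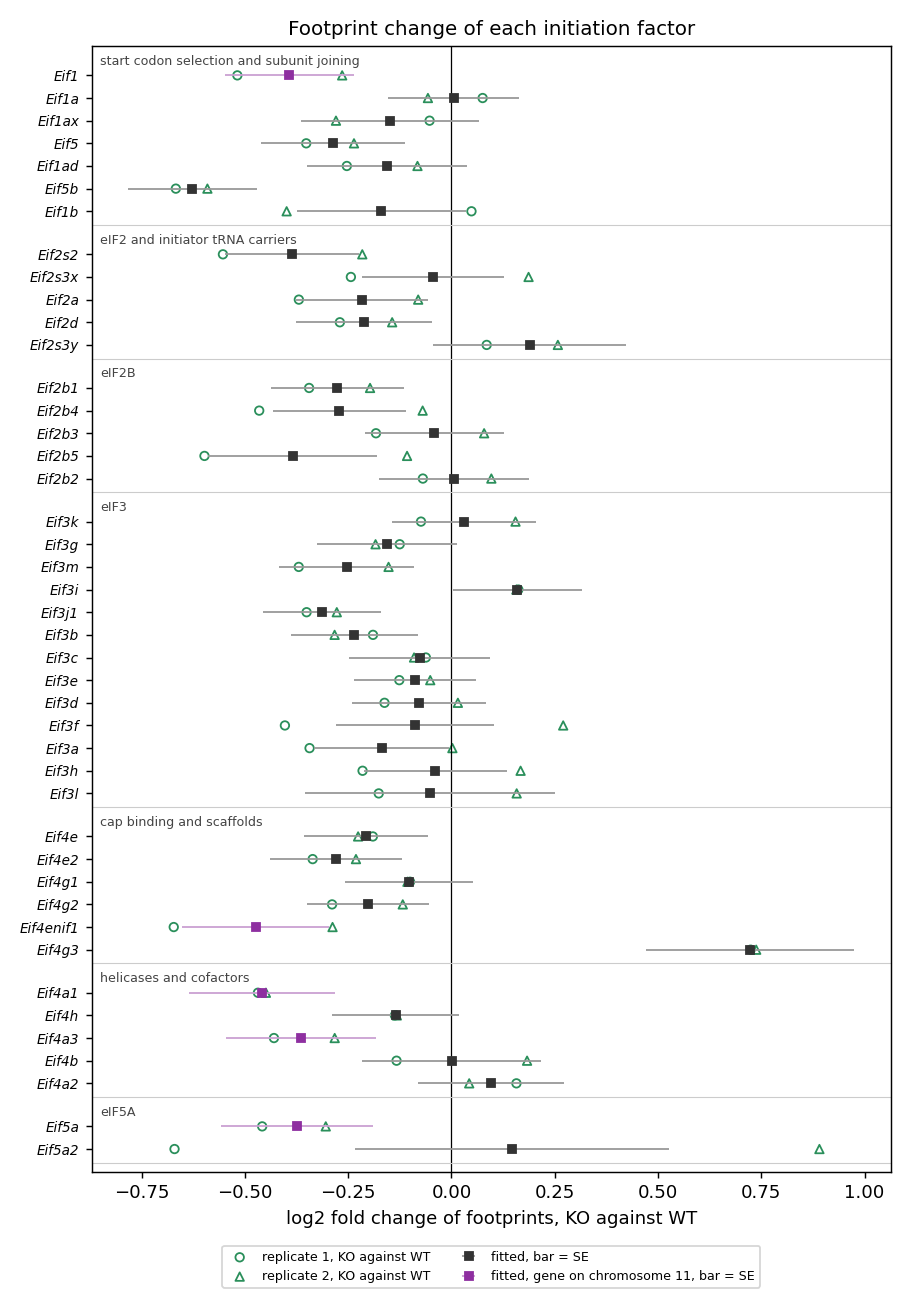
Footprint log2 fold change (KO minus WT, horizontal axis) of each initiation factor gene from the edgeR fit without a block, grouped by role (filled squares, bars are standard errors), with the log2 difference of each same-numbered pair as an open symbol and genes of chromosome 11 in purple. Most squares lie left of 0, from -0.63 for Eif5b to 0.72 for Eif4g3.

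The genes for start codon selection and subunit joining held 1716 and 1745 CPM in WT and 1363 and 1442 CPM in KO libraries. Of these 7 genes, 6 had a negative log2 fold change, and the median was -0.17. With the block 3 were called lower, beside 11.3% of all genes. Leaving out KO replicate 1 or KO replicate 2 gave a group median of -0.33 or -0.39, and leaving out WT replicate 1 gave -0.28. Eif5b encodes the GTPase that joins the large subunit and lies on chromosome 1 from 37998010 to 38055579 on the plus strand (GRCm38). It had 338 and 365 footprint CPM in WT and 213 and 243 CPM in KO libraries. The 2 genotypes did not overlap, and the paired log2 differences were -0.67 and -0.59. In the unpaired edgeR fit the Eif5b log2 fold change was -0.63 with a standard error of 0.16 and an adjusted p of 0.0748, the smallest among the 43 genes. With the block its adjusted p was 2.47e-06, without WT replicate 1 it was 0.0342, and over all alternatives it ran from 2.47e-06 to 0.3965. The value ranged from -0.72 to -0.54 when each footprint library was left out in turn. Eif5b exons overlap those of Rev1 on the opposite strand over 1643 bases, and no source used here gives the strand setting of the counting, so reads of these 2 genes cannot be told apart in that stretch. The same limit holds for the opposite-strand overlaps of Eif3d with Gm17638 (2151 bases), Eif1ad with Banf1 (428 bases) and Eif2b4 with Snx17 (204 bases). It also holds for Eif4a2 with Rfc4 (194 bases) and for shorter overlaps of Eif1b, Eif2a, Eif2d and Eif3m.

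Eif1, whose protein guards the accuracy of start codon choice, had 559 and 503 CPM in WT and 390 and 419 CPM in KO libraries. Its log2 fold change was -0.39 with a standard error of 0.16 (adjusted p 0.214, and 0.0106 with the block). The close copy Eif1b had 17.3 and 19.1 CPM in WT and 17.8 and 14.5 CPM in KO libraries, and it made up 2.995% to 4.37% of the pair in each library. Eif5, the GTPase-activating protein of eIF2, had 259 and 303 CPM in WT and 203 and 257 CPM in KO libraries. The Eif5 ranges of WT and KO did not overlap, but they nearly touched. The 2 genes of eIF1A, which helps the ribosome scan, overlapped between genotypes. Eif1a had 266 and 313 CPM in WT and 281 and 301 CPM in KO libraries. Eif1ax had 213 and 166 CPM in WT and 206 and 137 CPM in KO libraries, so the libraries numbered 2 were lower in both genotypes. Reads of such near-identical copies were divided by the authors' counting, and levels within a pair are uncertain. The sum of Eif1a and Eif1ax gave a log2 fold change of -0.05. Eif1ad, which encodes a protein with an eIF1A-like domain, had 63.4 and 75.9 CPM in WT and 53.2 and 71.7 CPM in KO libraries.

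Among the genes of eIF2 and of other proteins that carry the initiator tRNA, the beta subunit gene had the most negative log2 fold change. This group of 5 held 1167 and 1026 CPM in WT and 865 and 954 CPM in KO libraries, with a median log2 fold change of -0.21, which was -0.08 without WT replicate 1 and also without KO replicate 1. Eif2s2, the beta subunit gene, had 738 and 650 CPM in WT and 503 and 560 CPM in KO libraries, without overlap. Its log2 fold change was -0.39 with a standard error of 0.16 (adjusted p 0.236, and 0.0170 with the block). The gamma subunit is encoded by Eif2s3x on chromosome X and Eif2s3y on chromosome Y. Eif2s3x had 200 and 150 CPM in WT and 169 and 171 CPM in KO libraries, and Eif2s3y had 37.6 and 49.6 CPM in WT and 39.9 and 59.3 CPM in KO libraries. Both genes overlapped between genotypes, and their sum gave a log2 fold change of 0.01. Eif2a, which encodes a separate tRNA-binding protein and not an eIF2 subunit, had 103 CPM in both WT libraries and 79.5 and 97.1 CPM in KO libraries. Eif2d, related to the recycling factor pair of Denr and Mcts1, had 88.2 and 73.9 CPM in WT and 73.1 and 66.9 CPM in KO libraries.

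The 5 subunits of eIF2B, the exchange factor that recharges eIF2, were low in level, and none was called without the block. Together they held 474 and 386 CPM in WT and 362 and 372 CPM in KO libraries, and 4 of the 5 had a negative log2 fold change, with a median of -0.27 that was -0.07 without WT replicate 1. Eif2b5, the catalytic epsilon subunit, had 152 and 99.8 CPM in WT and 100.7 and 92.7 CPM in KO libraries, so the genotypes overlapped. Its log2 fold change of -0.38 (standard error 0.21, adjusted p 0.351) was called with the block at an adjusted p of 0.0106. It rested on the first WT library, since without WT replicate 1 the Eif2b5 value was -0.04. Eif2b1, the alpha subunit, had 86.0 and 73.1 CPM in WT and 67.7 and 63.7 CPM in KO libraries, which is a non-overlapping difference of -0.28 with an adjusted p of 0.398. Without WT replicate 1 the Eif2b1 value was -0.15. Eif2b4 had 109 and 92.1 CPM in WT and 79.3 and 87.8 CPM in KO libraries. Eif2b2 and Eif2b3 overlapped, at 39.3 to 48.0 CPM and 68.5 to 86.1 CPM over the footprint libraries.

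The subunits of eIF3 form a large scaffold on the small ribosomal subunit. Without overlap between genotypes, 4 of the 13 genes were lower in KO and 1 higher, beside 24.6% and 25.8% of all genes. The 13 genes held 5388 and 5072 CPM in WT and 4761 and 4901 CPM in KO libraries, and their median log2 fold change was -0.09, with 11 values negative and 2 positive. Leaving out WT replicate 2 moved that median to -0.22. It was -0.17 if KO replicate 2 was left out, and -0.17 after subtraction of chromosome medians. With the block only the loosely bound subunit gene Eif3j1 was called, and none of the 12 core subunit genes was. That fit called 11.3% of all genes lower and 12.7% higher. Eif3j1 had 227 and 224 CPM in WT and 178 and 185 CPM in KO libraries, without overlap. Its log2 fold change was -0.31 with a standard error of 0.14 (adjusted p 0.274, and 0.0290 with the block). Eif3j1 exons overlap Spg11 on the opposite strand over 1107 bases. The core genes without overlap between genotypes were Eif3b at 677 and 664 against 594 and 546 CPM, Eif3e at 324 and 315 against 297 and 304 CPM, Eif3m at 346 and 363 against 268 and 327 CPM, and Eif3i in the other direction at 313 and 281 against 350 and 314 CPM.

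Levels of different genes can be compared only per length. Footprint CPM was therefore divided by coding length and given per 100 codons. By this measure the 12 core eIF3 genes in WT ran from Eif3k (158 ± 28.4) and Eif3g (154 ± 20.3) through Eif3m, Eif3i, Eif3b, Eif3c, Eif3e, Eif3d, Eif3f, Eif3a and Eif3h to Eif3l (40.4). Neighbours in that order overlapped between the WT libraries except for Eif3g and Eif3m, Eif3i and Eif3b, and Eif3c and Eif3e. In KO the order began with Eif3k (161 ± 11.03) and Eif3g (138 ± 14.2) and ended with Eif3l again. The median of the 12 was 74.2 and 76.7 in the WT libraries and 69.2 and 68.1 in the KO libraries, and the highest gene was 3.39 to 5.95 times the lowest within a library.

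**Figure D3:**
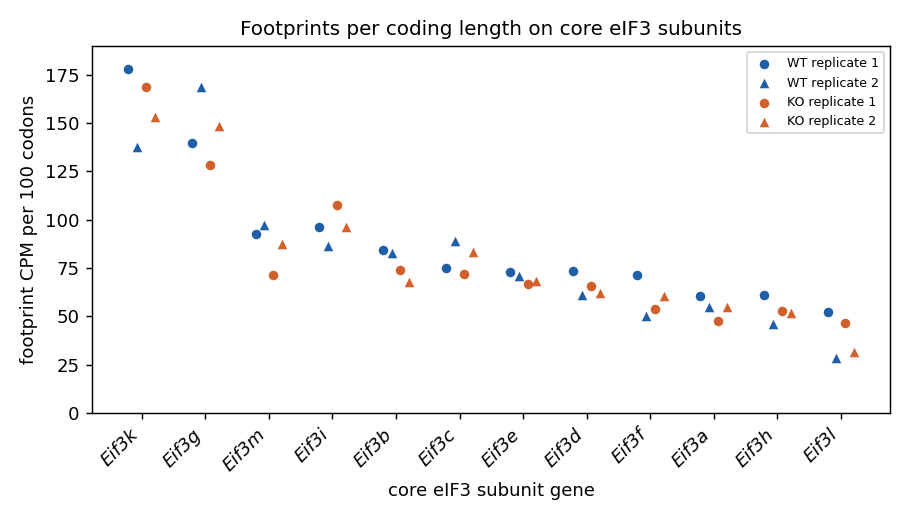
Footprint CPM per 100 codons (vertical axis) for the 12 core eIF3 subunit genes, 1 point per footprint library, ordered by the WT mean. Eif3k and Eif3g stand above the other 10 genes in every library. WT and KO points separate for Eif3b, Eif3e, Eif3m and Eif3i and overlap for the other genes.

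In the group of cap binding and the eIF4G scaffolds, Eif4g3 was higher in both KO libraries and the other 5 genes were lower. The 6 genes held 1424 and 1364 CPM in WT and 1261 and 1240 CPM in KO libraries, 5 of the 6 log2 fold changes were negative, and the median was -0.20. Eif4g3, the lesser of the eIF4G scaffold genes, had 26.2 and 18.0 CPM in WT and 43.3 and 30.02 CPM in KO libraries. It lies on chromosome 4 from 137993022 to 138208508 on the plus strand. The paired log2 differences were 0.72 and 0.74, and the unpaired log2 fold change was 0.72 with a standard error of 0.25 (adjusted p 0.165, and 1.20e-05 with the block). Without WT replicate 1 it was 1.03 with an adjusted p of 0.0118, without WT replicate 2 it was 0.48 and without KO replicate 1 it was 0.44, and over all alternatives the adjusted p ran from 1.20e-05 to 0.654. The major scaffold gene Eif4g1 was at 629 and 588 CPM in WT and 587 and 546 CPM in KO libraries, and Eif4g2, whose protein lacks the eIF4E-binding site, was at 276 and 269 against 226 and 248 CPM. Both were lower in KO without overlap, although for Eif4g1 the ranges nearly touched. Whether Eif4g3 differed from them was not tested.

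Eif4enif1, which encodes the eIF4E transporter 4E-T, had 57.9 and 53.5 CPM in WT and 36.4 and 43.9 CPM in KO libraries. Its log2 fold change was -0.47 with a standard error of 0.18 (adjusted p 0.192, and 0.00236 with the block). Eif4e, the cap-binding protein gene, had 286 and 269 CPM in WT and 251 and 230 CPM in KO libraries, or 128 ± 5.59 and 111 ± 6.86 CPM per 100 codons. Eif4e2, whose protein binds caps without eIF4G and can repress translation, had 149 and 168 CPM in WT and 118 and 143 CPM in KO libraries, a log2 fold change of -0.28 with an adjusted p of 0.386 (0.0483 with the block). Without KO replicate 1 the Eif4e2 value was -0.15, and without KO replicate 2 it was -0.42.

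The helicases and their cofactors held 6981 and 5942 CPM in WT and 5315 and 4690 CPM in KO libraries, with a median log2 fold change of -0.13 over 5 genes. Leaving out a library gave a median from -0.27 (without WT replicate 2) and -0.21 (without KO replicate 1) to -0.07 (without WT replicate 1 or KO replicate 2). Eif4a1 alone supplied 21.3% to 27.2% of the footprint counts of the 43 genes in each library. It had 5306 and 4585 CPM in WT and 3835 and 3359 CPM in KO libraries, without overlap, and it lies on chromosome 11 from 69666936 to 69672423 on the minus strand. The Eif4a1 log2 fold change was -0.46 with a standard error of 0.18 (adjusted p 0.203, and 0.0484 with the block). The paralog Eif4a2 had 190 and 244 CPM in WT and 211 and 251 CPM in KO libraries, and it made up 3.45% and 5.04% of the pair in WT and 5.22% and 6.95% in KO libraries. That share was higher in KO without overlap, and it was not tested. Eif4a3, the eIF4A-like helicase of the exon junction complex, had 504 and 389 CPM in WT and 374 and 320 CPM in KO libraries (log2 fold change -0.36, adjusted p 0.317, and 0.0190 with the block). Without WT replicate 1 the Eif4a3 value was -0.16, and without WT replicate 2 it was -0.54. The cofactor genes Eif4b and Eif4h, which stimulate the helicase, overlapped between genotypes. Eif4b had 674 and 446 CPM in WT and 615 and 506 CPM in KO libraries, and Eif4h had 308 and 279 against 280 and 255 CPM. The libraries numbered 2 were lower for Eif4b in both genotypes, by more than the genotypes differed.

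The eIF5A protein carries the modified residue hypusine and helps ribosomes through difficult peptide bonds. The group median of -0.11 stands for only 2 genes of opposite sign, and it turned positive without WT replicate 1 (0.03) and without KO replicate 1 (0.16). Eif5a had 2336 and 2663 CPM in WT and 1700 and 2157 CPM in KO libraries, without overlap, and at 1623 ± 150 CPM per 100 codons in WT it was above Eif4a1, at 1218 ± 126. In KO libraries these 2 genes stood at 1252 ± 209 and 886 ± 83.1 CPM per 100 codons. The Eif5a log2 fold change was -0.37 with a standard error of 0.18 (adjusted p 0.311, and 0.0661 with the block). Without KO replicate 1 the Eif5a value was -0.21. Its copy Eif5a2 stayed at 3.24 to 6.15 CPM, between 0.124% and 0.284% of the pair.

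Eif4a1, Eif5a, Eif1, Eif4a3 and Eif4enif1 all lie on chromosome 11. All 5 were lower in KO without overlap, beside 24.6% of all genes, with a median log2 fold change of -0.39. The share without overlap among all genes of chromosome 11 was not counted. The 1011 tested genes of chromosome 11 had a median of -0.25, beside medians of -0.38 on chromosome 6 and -0.22 on chromosome 8, and between -0.01 and 0.10 on the other chromosomes. No initiation factor gene lay on chromosome 6 or 8. After each gene's chromosome median was subtracted, the 5 genes had a median of -0.14, with Eif4a1 at -0.21, Eif5a at -0.12, Eif1 at -0.14, Eif4a3 at -0.11 and Eif4enif1 at -0.22. The values of Eif5b and Eif4g3 were then -0.62 and 0.68. The 38 genes on other chromosomes had a median of -0.14 before and -0.18 after, and all 43 then had a median of -0.18, with 38 negative. These counts include Eif2s3y, whose value was left unchanged. Chromosome Y had 6 tested genes, and a chromosome median was subtracted only from 20 genes up. In level, the 5 genes held 8762 and 8193 CPM in WT and 6336 and 6297 CPM in KO libraries, and the other 38 held 10730 and 10010 against 9295 and 9464 CPM.

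Many mRNAs of the translation machinery begin with a C followed by an uninterrupted run of pyrimidines, the 5′ terminal oligopyrimidine motif through which mTOR signalling controls their translation. The annotated starts of the initiation factor genes were read from RefSeq windows (GRCm38.p6), and a tract was taken as a C followed by at least 4 pyrimidines on the sense strand, beginning within 5 bases of an annotated start. Of 37 genes with a window, 10 held such a tract (27.0%), against 21.2% of all genes with a window. Shown are the 4 genes with the longest tracts, in capitals, and 3 genes without a tract. The 3 were chosen because their footprints were lower in KO without overlap, so the genes shown do not compare tract with no tract. Each is given in 30 bases that begin 10 bases before the annotated start.
Eif3f, chr7:108934405-108934434, plus strand: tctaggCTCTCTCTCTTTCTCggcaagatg
Eif2s3x, chrX:94212632-94212661, minus strand: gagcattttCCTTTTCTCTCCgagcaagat
Eif3l, chr15:79075213-79075242, plus strand: gagttcttcttccgCTCTCTCCCacgggct
Eif2s3y, chrY:1010585-1010614, plus strand: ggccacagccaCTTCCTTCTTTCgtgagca
Eif5b, chr1:37998000-37998029, plus strand: ctgggttcccacctggccggcggctctact
Eif4a1, chr11:69672404-69672433, minus strand: gtaacgtcacgtcgagttgcagagcgccgg
Eif2s2, chr2:154892887-154892916, minus strand: aaggttggctttactgtacgcctgcgcttt
Of the 4 genes with a tract, Eif3f had 258 and 181 CPM in WT and 195 and 218 CPM in KO libraries, and Eif3l had 296 and 160 against 262 and 178 CPM. The WT library numbered 2 was below the one numbered 1 for Eif3f, Eif3l and Eif2s3x and above it for Eif2s3y. Over the 10 genes with a tract the median log2 fold change was -0.10, with 8 negative, and over the 27 without one it was -0.21, with 22 negative. Both KO libraries lay below both WT libraries for 3 of the 10 and for 15 of the 27, beside 24.6% of all genes. The 3 genes with a tract were Eif3b, Eif4enif1 and Eif4g1. The difference between the sets with and without a tract was not tested. The match is a description of these letters and not a mapped start.

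RNA-seq held too few counts to follow most of these genes. Its libraries were shallow, but levels scaled to library size also differed from footprints. Eif4a1 had 109 and 51.0 CPM in WT RNA-seq, beside 5306 and 4585 CPM in WT footprints. The part of library preparation in this difference was not tested. Only 11 of the 43 passed the filter on low counts, 10 stayed under 3 counts in every RNA-seq library, and 3 were at 0 in all of them. Among the 11 genes tested, 7 log2 fold changes were negative and 4 positive, with a median of -0.22 that was 0.115 without KO replicate 2 and -0.71 without WT replicate 2. None was called by edgeR, where 6.37% of the 2087 genes tested were called (2.68% lower, 3.69% higher), and 3 of the 11 had an unadjusted p below 0.05, beside 23.1% of all genes tested. DESeq2 called 0 of them, beside 3.59% of all genes tested. With the block 0 of the 11 were called, beside 7.43% of all genes tested (3.35% lower, 4.07% higher). A gene that entered this comparison had to be detected in it, so the 11 do not stand for the 43.

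Eif5b had the most RNA-seq counts among the initiation factor genes, 26.2% to 40.6% of their counts in each library. The exon overlap with Rev1 over 1643 bases holds here too, and reads of these genes cannot be told apart there. Eif5b had 126 and 112 RNA-seq counts in WT and 113 and 131 in KO libraries, or 722 and 572 CPM against 794 and 843 CPM. In RNA-seq, both KO libraries of Eif5b were thus above both WT libraries, the opposite of its footprints, with a log2 fold change of 0.34, a standard error of 0.25 and an adjusted p of 0.478. Eif4a2 had 90 and 59 counts in WT and 23 and 33 in KO libraries, a log2 fold change of -1.12 with a standard error of 0.37 (adjusted p 0.0980). Without WT replicate 2 the Eif4a2 adjusted p was 0.00724, and it reached 0.386 without KO replicate 1. The Eif4a2 gene holds 6 annotated small RNA genes on its strand, Eif3a and Eif4a1 hold 3 each, and Eif5b holds none. Eif4g1, Eif4g2 and Eif5 hold 1 each. Such small RNA genes overlap exons of Eif4a2, Eif4a1, Eif4g2 (150 bases) and Eif5 (127 bases). The overlap is 1 base in Eif4g1, and Eif3a exons have none. The part of small RNA reads in these counts was not tested. Eif2s3x had 17 and 14 counts in WT and 4 and 3 in KO libraries (log2 fold change -1.80, standard error 0.69, adjusted p 0.142). Eif3a, the largest eIF3 subunit gene, had 30 and 31 counts in WT and 8 and 15 in KO libraries (log2 fold change -1.09, standard error 0.47, adjusted p 0.184). Eif4g2 had 35.8 and 41.1 counts in WT and 16.4 and 20.3 in KO libraries (log2 fold change -0.78, standard error 0.38, adjusted p 0.249). The most abundant footprint gene, Eif4a1, had 19 and 10 RNA-seq counts in WT and 14 and 6 in KO libraries. The other 5 genes tested, Eif4e2, Eif4enif1, Eif4g1, Eif5 and Eif5a, had 4.69 to 21 counts per library.

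**Figure D4:**
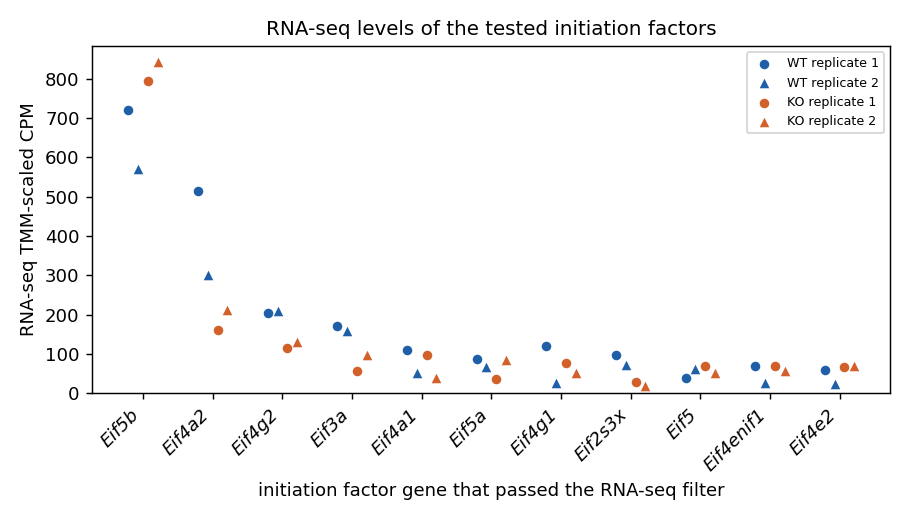
RNA-seq level (CPM) of the 11 initiation factor genes that passed the count filter, 1 point per RNA-seq library. Eif5b is highest, at 572 to 843 CPM, and Eif4a2 runs from 301 and 516 CPM in WT to 162 and 212 CPM in KO libraries.

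Translational efficiency compares the footprint change with the RNA change in 1 model over the 8 libraries, so a negative value means that the footprint log2 fold change was below that of RNA. None of the 11 genes was called by edgeR, where 9.26% of the 1458 genes tested were called (4.53% lower, 4.73% higher), and 4 of the 11 had an unadjusted p below 0.05, beside 24.4% of all genes tested. With the block 1 gene was called lower and 1 higher, where 5.14% and 5.83% of all genes tested were. The Eif5b value was -0.94 with a standard error of 0.32 (adjusted p 0.0825, and 0.0346 with the block). Its exon overlap with Rev1 limits that value as well. Eif4a2 had a value of 1.23 with a standard error of 0.41 (adjusted p 0.0813, and 0.0403 with the block). Exon overlaps of Eif4a2 with small RNA genes, and with Rfc4 over 194 bases on the opposite strand, limit that value too. Eif2s3x had 1.82 with a standard error of 0.53 (adjusted p 0.0501), resting on 3 to 17 RNA-seq counts per library. Eif3a had 0.96 with a standard error of 0.40 (adjusted p 0.162). The median over the 11 genes was -0.01.

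Genes that work beside the initiation factors were compared in the same footprint fit. The list held 24 genes, among them the recycling factor Abce1, the reinitiation pair Denr and Mcts1, poly(A)-binding proteins and their regulators, scanning helicases such as Ddx3x and Dhx29, and the eIF5 mimics Bzw1 and Bzw2. Of the 24, 17 had a negative log2 fold change, beside 49.2% of all genes, and the median was -0.20. In edgeR 0 were called, beside 2.44% of all genes, and 5 had an unadjusted p below 0.05, beside 19.4%. DESeq2 called 2, Bzw1 and Paip2b, beside 3.04% of all genes. The limma fit called 0, beside 1.4% of all genes. With the block 9 were called lower and 0 higher, beside 11.3% and 12.7% of all genes. Both KO libraries lay below both WT libraries for 10 of the 24 and above them for 2, beside 24.6% and 25.8% of all genes. The 4 partners described here are those with the smallest p. Bzw1, which encodes a mimic of eIF5 that modulates start codon choice, had 225 and 184 CPM in WT and 130 and 104 CPM in KO libraries. The Bzw1 log2 fold change was -0.80 with a standard error of 0.18 (adjusted p 0.0529, and 8.47e-11 with the block). Paip2b, an inhibitor of poly(A)-binding protein, had 57.6 and 71.6 CPM in WT and 28.7 and 39.2 CPM in KO libraries (log2 fold change -0.93, adjusted p 0.0581). It lies on chromosome 6, and its value with the chromosome median removed was -0.55. Abce1, the recycling ATPase, had 385 and 437 CPM in WT and 268 and 296 CPM in KO libraries (log2 fold change -0.54, adjusted p 0.112). It lies on chromosome 8, and its value with the chromosome median removed was -0.32. Denr, which acts in reinitiation, had 91.7 and 110 CPM in WT and 67.0 and 81.6 CPM in KO libraries (log2 fold change -0.44, adjusted p 0.212).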

How the data were processed

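Gene-level expected counts and TPM were deposited by the authors, 1 table per library. Per the submitters' processing notes, Bowtie2 2.3.4.3, RSEM and the build mm10 were used; trimming, strand setting and removal of ribosomal RNA are not stated there. Libraries were made with a small RNA kit, per the labels' protocols. The transcript lengths in the deposited tables (another unit, in bases) were not used for tests.

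Expected counts were rounded and fitted with edgeR 4.0.16 (R 4.3.3; TMM scaling, filterByExpr, robust quasi-likelihood test, Benjamini-Hochberg adjustment over all genes tested), WT against KO, separately for 4 footprint and 4 RNA-seq libraries. Translational efficiency was the assay by genotype interaction over all 8. CPM are scaled by TMM. With 2 libraries against 2, a two-sided exact permutation test cannot go below 0.333 and was not used. DESeq2 1.42.0 and limma 3.58.1 on log2(TPM + 1) were alternatives. Coding length came from GENCODE M21 coding sequences matched by RefSeq accession for 43 genes, not from a RefSeq protein table as planned, and start windows came from RefSeq. The procedure was run on simulated counts with changes larger than any reported here for an initiation factor gene. That run does not show how well changes of the reported size are found.

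Same-numbered libraries deviated together weakly (correlation of replicate differences 0.353 in footprints, 0.0344 in RNA-seq), and a tag recurs in the deposited names of same-numbered footprint libraries, so the replicate number was tried as a block.

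Members and lists were chosen with earlier results of these data known. Values per library were given for the 12 genes with the smallest footprint p, the 2 with most footprints per codon in each role group, paralog pairs, genes tested in RNA-seq and up to 4 partners; other genes were added for completeness.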

Additional observations from a re-analysis of the deposited data

How the results depend on the processing

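The replicate block moved the number of initiation factor genes called in footprints from 0 to 11, of partners from 0 to 9 and of translational efficiency calls from 0 to 2. DESeq2 called 1 initiation factor gene and 2 partners, beside 374 of 12315 genes tested, and DESeq2 size factors in edgeR called 1 partner, beside 303. The fit with no filter on low counts called 2 of each, beside 1110 of 17328 genes. The block called 2960 of 12315 genes in footprints and 160 of 1458 in translational efficiency. A mean count of at least 50 left 9259 genes in footprints. With 1 library left out, 12607 to 12832 genes were tested in footprints, 2341 to 2678 in RNA-seq and 1692 to 1927 in translational efficiency. Leaving out each library in turn gave 0 to 2 initiation factor genes in footprints (2 without WT replicate 1, Eif5b and Eif4g3), 1 to 3 partners, 0 to 1 gene in RNA-seq and 0 to 1 in translational efficiency (both Eif4a2, without WT replicate 2). The median RNA-seq log2 fold change ran from -0.71 to 0.115 in these fits, so its sign depended on the library left out, while the footprint median ran from -0.23 to -0.10 over all alternatives. None of the 16 genes named with a footprint log2 fold change was called in the unpaired edgeR fit, so no call could be lost; their 208 values under alternatives kept their direction, 29 gained a call, and several changed in size by over 1.5 times. Over all genes, footprint calls went from 301 to 2960 with the block, 1110 with no filter, 186 at a mean count of at least 50, 172 with limma, 761 without WT replicate 1, 505 when the other WT library was left out and 189 when KO replicate 2 was. RNA-seq calls went from 133 to 75 with DESeq2, 242 without WT replicate 1 and 73 without KO replicate 1, and translational efficiency calls from 135 to 85 without WT replicate 2, to 1 without KO replicate 1 and to 17 without KO replicate 2. The 2 libraries per group and shallow RNA-seq limit all of these values.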
